A study of Saccharomyces cerevisiae with 24 samples.

Results

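The genes described here are 36 chaperone and heat shock genes of the budding yeast Saccharomyces cerevisiae, fixed as a list of names and found on the array through its annotation, out of 5449 yeast genes measured in the series. They are covered by 37 of the 5498 probe sets tested, since SSB1 has 2 probe sets. Chaperones bind proteins that are not yet folded or have lost their fold. The Hsp70 and Hsp90 proteins do so in cycles of ATP hydrolysis that are set by J proteins, exchange factors and co-chaperones, small heat shock proteins hold unfolded proteins in a state from which they can be recovered, and the disaggregase Hsp104 pulls proteins out of aggregates. Many of these genes are transcribed through Hsf1, the heat shock factor, and several also through the general stress factors Msn2 and Msn4, and in yeast they are known for their fast rise on heat.

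RNA came from 8 strains, with 3 independent cultures and 1 Affymetrix Yeast Genome 2.0 array for each culture, 24 arrays in all, of cells grown in supplemented minimal medium at 30 °C to mid-log phase. All strains were MATa his3Δ1 leu2Δ0 ura3Δ0 met15Δ0 in the BY4741 background, and no heat shock was applied. They were wild type, htz1Δ, which lacks the histone variant H2A.Z (Htz1), swr1Δ, swc2Δ and swc5Δ, which each lack a subunit of the SWR1 complex that puts H2A.Z into nucleosomes, and the 3 double mutants of htz1Δ with swr1Δ, with swc2Δ and with swc5Δ. The deletions of HTZ1, of SWR1, of SWC2 (VPS72 on the array) and of SWC5 carried kanMX4. The htz1Δ strain also carried bar1Δ::hyg, which no other strain did, and htz1Δ swc5Δ also carried lys2Δ0. Each mutant was 1 strain grown 3 times, except that the labels of swr1Δ give each of the 3 cultures a strain name of its own, so a difference between strains cannot be told apart from what else a strain isolate carries, and p-values measure the spread between cultures.

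The question put to these genes was how their transcript levels in growing cells differ without H2A.Z, without a SWR1 subunit and without both. Levels are log2 expression values, which the authors made with RMA (background correction, quantile normalization and a summary of each probe set). The deposited values of the 3 SWR1-subunit single mutants lay at other levels than the rest, with array medians of 9.29 to 9.30 for swr1Δ, 10.06 to 10.10 for swc2Δ and 9.97 to 9.99 for swc5Δ, against 9.71 to 9.77 for the 15 other arrays. The 9 arrays of these 3 strains were therefore given, rank for rank, the average value that the 15 others hold at that rank, and the 15 kept their deposited values. Comparisons among wild type, htz1Δ and the double mutants rest on deposited values, with the error pooled over all 24 arrays, and every comparison with a single mutant of SWR1, SWC2 or SWC5 depends on the mapping. Strains were compared with limma. A gene is called at an adjusted p under 0.05 over all 5498 probe sets, and errors after ± are standard errors of that fit unless SD is written. In whole cultures, fewer cells with a transcript and less of it per cell cannot be told apart.

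The deleted genes were low where the labels give them as deleted. HTZ1, SWR1, VPS72 and SWC5 lay between 2.23 and 4.66 in the strains that lack them and at 7.59 or more elsewhere. All 37 probe sets of the chaperone and heat shock genes lay above 3.85, the 95th percentile of the probe sets of another species, on every array. In swc5Δ, culture 1 stood apart from cultures 2 and 3, with an SD of the differences over all probe sets of 0.452 and 0.462 against 0.149 to 0.282 for every other pair of cultures. The 261 probe sets of chromosome V had medians of 0.32 and 0.38 above wild type in swc5Δ cultures 2 and 3 and of -0.13 in culture 1, against -0.06 to 0.02 in the other 7 strains. SSA4 and ECM10 lie on chromosome V, and their values in swc5Δ are given with that in view.

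Of the 36 genes, 20 rose in htz1Δ against wild type and 1 fell, with a median difference of 0.31 over the 36, while over all probe sets the median was -0.02, 24.2% were called higher and 26.9% lower. The 6 genes that rose over 2-fold were HSP30, HSP42, HSP78, XDJ1, BTN2 and HSP104, where 2.11% of all probe sets rose that far, and for HSP30 the htz1Δ and wild-type cultures overlapped. FES1, an exchange factor of cytosolic Hsp70, was the gene that fell. The count of genes called was 21 with all arrays and 17 to 22 when any 1 array was left out.

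In the 3 single mutants of the SWR1 complex fewer of the 36 genes were called. In swr1Δ 12 rose and 0 fell, against 14.7% and 17.6% of all probe sets, and without adjustment 2 were lower at a p under 0.05. XDJ1 was the 1 gene to rise over 2-fold there, as 0.837% of all probe sets did. In swc2Δ 10 rose and 1 fell, against 16% and 17.3%. In swc5Δ 3 rose and 0 fell, against 16.4% and 16.6%, so the share of these genes that rose there, 8.33%, lay under that of all probe sets, and 1 was lower at an unadjusted p under 0.05. These counts turn on the scale of the arrays: on the values as deposited, where the swr1Δ arrays lie lower and the swc2Δ and swc5Δ arrays higher as a whole, 1 rose and 14 fell in swr1Δ, 31 rose and 0 fell in swc2Δ and 17 rose and 0 fell in swc5Δ. The shares of all probe sets called on the values as deposited were not counted, so these counts have no share to stand against. Without wild-type culture 3 the counts called were 7 in swr1Δ and 5 in swc2Δ, without wild-type culture 2 the count in swc2Δ was 6, and without swr1Δ culture 2 it was 7 in swr1Δ. Without swc5Δ culture 1, 3 rose and 4 fell in swc5Δ, and without its culture 3 the count called was 5.

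In the double mutants, which are compared with wild type on deposited values, 8 rose and 1 fell in htz1Δ swr1Δ, against 10.9% and 18% of all probe sets. In htz1Δ swc2Δ 9 rose and 0 fell, against 15% and 16.3%, and 1 was lower at an unadjusted p under 0.05. In htz1Δ swc5Δ 17 rose and 0 fell, against 17.9% and 18.7%, 1 was lower at an unadjusted p under 0.05, and HSP26 was the 1 gene to rise over 2-fold, as 0.673% of all probe sets did. The medians over the 36 genes were 0.14, 0.19 and 0.22. Leaving out single arrays took the counts called to between 4 and 12, 5 and 12, and 10 and 18 in the 3 double mutants. The lowest of these were without culture 1 of htz1Δ swr1Δ, culture 2 of htz1Δ swc2Δ and culture 2 of htz1Δ swc5Δ, and without wild-type culture 3 the counts in htz1Δ swr1Δ and htz1Δ swc5Δ were 5 and 11. With a block for the replicate number added to the fit, 16 rose and 2 fell in htz1Δ swr1Δ, and 15 rose and 1 fell in htz1Δ swc2Δ. In htz1Δ swc5Δ 19 rose and 1 fell with the block. The shares of all probe sets called in that fit were not counted. All comparisons with wild type share its 3 arrays, so the counts are not independent of each other.

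**Figure D1:**
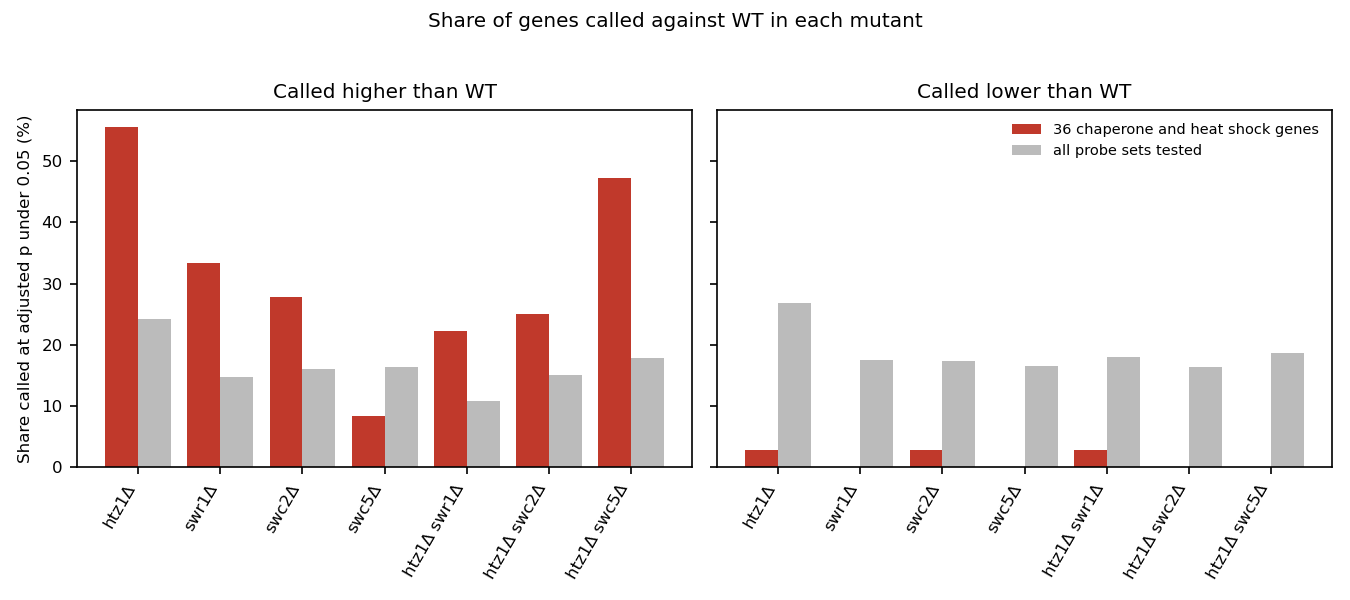
Share of genes called higher (left) and lower (right) than wild type at an adjusted p under 0.05, in percent, for each of 7 mutants; red bars are the 36 chaperone and heat shock genes and grey bars all 5498 probe sets tested. Red exceeds grey among higher calls in every mutant but swc5Δ, from 55.6% against 24.2% in htz1Δ to 8.33% against 16.4% in swc5Δ, while lower calls reach at most 2.78%.

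Over the 7 mutants, 3 genes rose in all 7: XDJ1, a J protein, SSA3, a cytosolic Hsp70 of the Ssa class, and SSC1, the main Hsp70 of the mitochondrial matrix. SSA1 and SSE1 rose in 6, missing the threshold in swc5Δ, and SSA2 and MDJ1 rose in 5. In swr1Δ the rises of SSA3, SSC1, SSE1, SSA2 and MDJ1 depend on the mapping, and on the values as deposited their differences there were negative. At the other end 11 genes rose in none. How many of all probe sets rose in as many mutants was not counted, so these counts have no share to stand against. ECM10 fell in swc2Δ and htz1Δ swr1Δ and FES1 fell in htz1Δ, and no other of the 36 genes was called lower in any mutant.

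**Figure D2:**
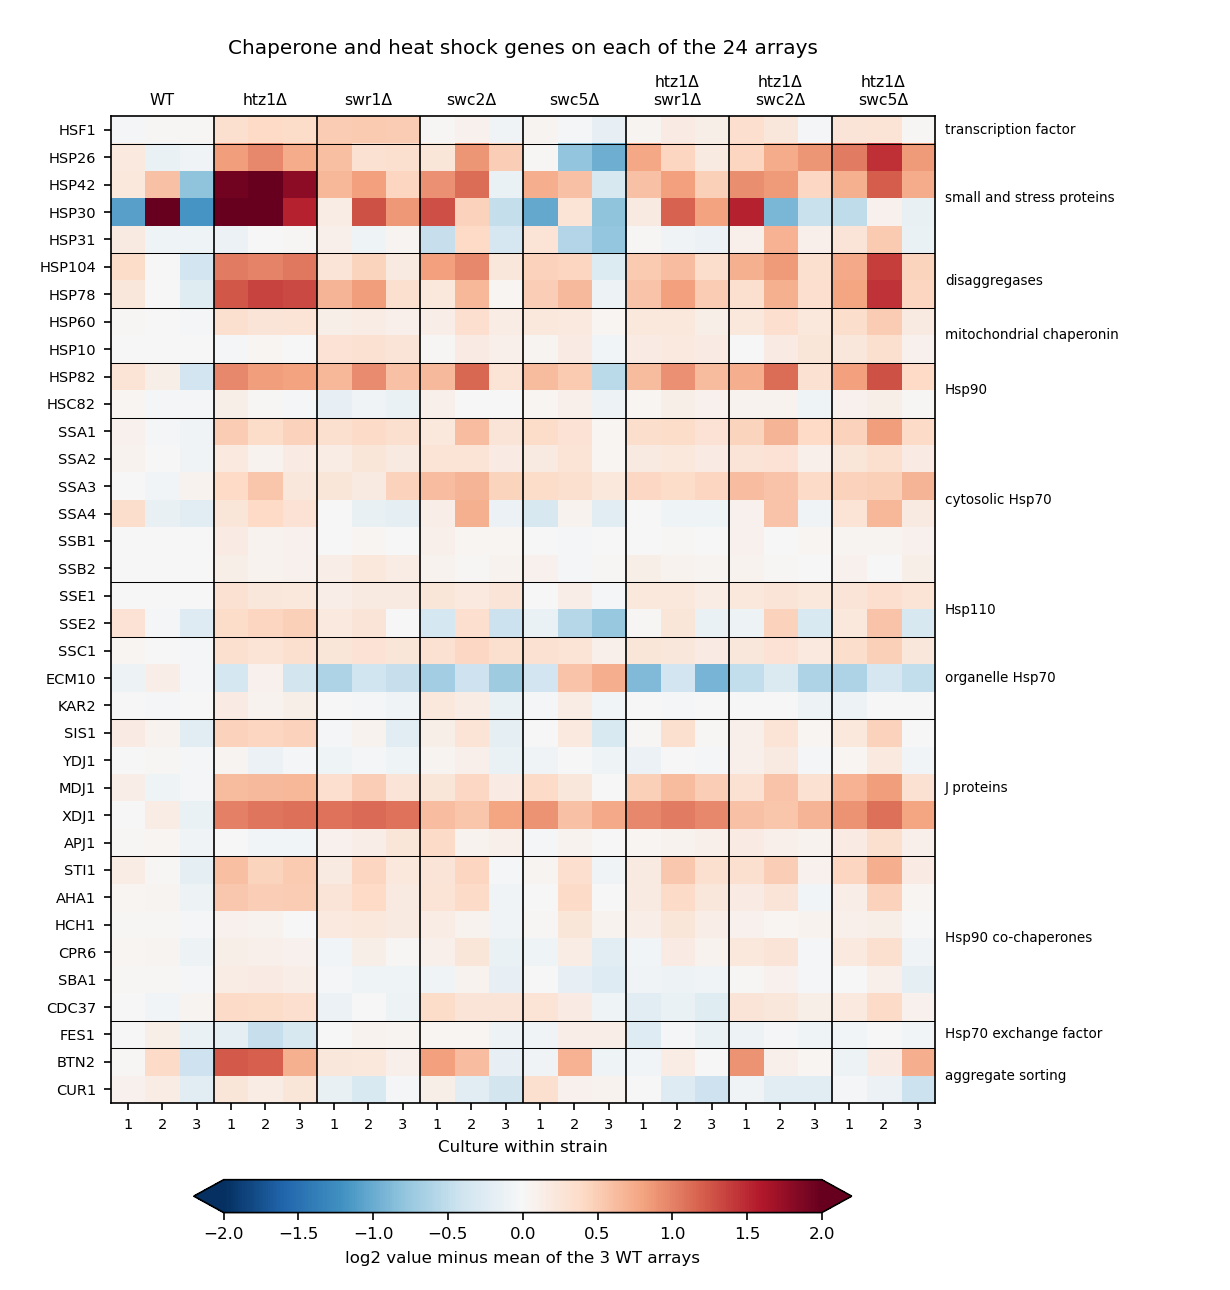
Each of the 36 genes (rows, grouped by role) on each of 24 arrays (columns, cultures 1 to 3 of each strain): colour gives the log2 value minus the mean of the 3 wild-type arrays, and values beyond 2 or -2 take the end colours. HSP42, HSP104, HSP78, HSP82 and BTN2 are high in all 3 htz1Δ cultures, XDJ1 is high in every mutant, and the second wild-type culture is high for HSP30.

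The heat shock factor itself moved little. HSF1 values were 9.27, 9.33 and 9.33 in the wild-type cultures, 9.63, 9.71 and 9.67 in htz1Δ and 9.81, 9.83 and 9.81 in swr1Δ. In swc2Δ they were 9.33, 9.39 and 9.24, and in swc5Δ 9.36, 9.27 and 9.14. In the double mutants they were 9.37, 9.47 and 9.42 with swr1Δ, 9.64, 9.54 and 9.27 with swc2Δ and 9.56, 9.59 and 9.34 with swc5Δ. The cultures of htz1Δ, swr1Δ, htz1Δ swr1Δ and htz1Δ swc5Δ all lay above wild type, while swc2Δ, swc5Δ and htz1Δ swc2Δ overlapped it. HSF1 rose by 0.36 ± 0.08 in htz1Δ (adjusted p = 0.0013) and by 0.51 ± 0.08 in swr1Δ (adjusted p = 1e-04), which on the values as deposited was 0.06 (adjusted p = 0.53). In the double mutants the differences were 0.11, 0.17 and 0.19, with adjusted p of 0.35, 0.12 and 0.081.

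The small and stress-induced proteins gave the largest differences, together with the largest spread between cultures. HSP42 encodes a small heat shock protein that gathers unfolded proteins into cytosolic deposits during growth. Its values were 9.63, 10.01 and 8.61 in wild type and 11.34, 11.44 and 11.20 in htz1Δ, where every culture lay above every wild-type culture. In the single mutants they were 10.08, 10.23 and 9.84 (swr1Δ), 10.33, 10.54 and 9.29 (swc2Δ) and 10.14, 10.00 and 9.09 (swc5Δ). In the double mutants they were 10.01, 10.24 and 9.90 with swr1Δ, 10.35, 10.27 and 9.83 with swc2Δ and 10.13, 10.63 and 10.16 with swc5Δ. HSP42 rose 3.76-fold in htz1Δ (log2 difference 1.91 ± 0.33, adjusted p = 0.00012) and rose in htz1Δ swc5Δ (0.89, adjusted p = 0.042), a call that was lost without any of 6 single arrays. In the other 5 mutants the differences were 0.33 to 0.73 and were not called.

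HSP26 encodes the other cytosolic small heat shock protein, whose oligomers are activated by heat. It was at 12.16, 11.83 and 11.90 in wild type, 12.80, 12.93 and 12.71 in htz1Δ and 13.01, 13.42 and 12.81 in htz1Δ swc5Δ. The swr1Δ cultures gave 12.56, 12.27 and 12.29 and the swc2Δ cultures 12.21, 12.84 and 12.46, and those of htz1Δ swr1Δ 12.73, 12.39 and 12.14 and of htz1Δ swc2Δ 12.39, 12.71 and 12.84. In swc5Δ alone the values were 11.99, 11.17 and 10.98, with the low values in the cultures with the raised chromosome V medians. HSP26 rose by 0.85 ± 0.23 in htz1Δ (adjusted p = 0.0043), by 0.68 in htz1Δ swc2Δ (adjusted p = 0.026) and by 1.12 in htz1Δ swc5Δ (2.17-fold, adjusted p = 0.00089). In swc5Δ it stood at -0.58 ± 0.23 (adjusted p = 0.053), just outside the threshold. It was called lower there after median centring or quantile normalization (adjusted p = 0.049 in both), and without swc5Δ culture 1 it was at -0.89 (adjusted p = 0.0022), over a range of -0.89 to -0.38 with single arrays left out.

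HSP30 encodes a stress-induced protein of the plasma membrane. Its wild-type cultures were far apart, at 7.48, 10.83 and 7.39, and the htz1Δ cultures gave 10.62, 10.75 and 10.11. The single mutants gave 8.71, 9.84 and 9.44 (swr1Δ), 9.86, 9.03 and 8.09 (swc2Δ) and 7.54, 8.84 and 7.76 (swc5Δ). The double mutants gave 8.74, 9.75 and 9.37 with swr1Δ, 10.10, 7.66 and 8.12 with swc2Δ and 8.06, 8.65 and 8.42 with swc5Δ. Wild type and htz1Δ overlapped through the second wild-type culture, and the spread of HSP30 within strains exceeded that of 99.9% of all probe sets. The fitted rise in htz1Δ was 1.92 ± 0.74 (adjusted p = 0.035). It was 3.06 without wild-type culture 2, and without wild-type culture 1 or 3 or htz1Δ culture 1 or 2 it was no longer called. HSP31, a glyoxalase and chaperone that the stress factors induce, was called in none of the 7 mutants, with differences of -0.36 to 0.30.

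The disaggregases rose in htz1Δ and in htz1Δ swc5Δ. HSP104, the cytosolic disaggregase, was at 11.44, 11.07 and 10.69 in wild type, 12.11, 12.06 and 12.12 in htz1Δ and 11.83, 12.45 and 11.51 in htz1Δ swc5Δ. In the other strains it was at 11.33, 11.51 and 11.25 (swr1Δ), 11.88, 12.02 and 11.29 (swc2Δ), 11.53, 11.49 and 10.80 (swc5Δ), 11.59, 11.69 and 11.42 (htz1Δ swr1Δ) and 11.77, 11.92 and 11.39 (htz1Δ swc2Δ). Of these 5, all overlapped wild type. HSP104 rose by 1.03 ± 0.24 in htz1Δ (2.05-fold, adjusted p = 0.0016), by 0.87 in htz1Δ swc5Δ (adjusted p = 0.0086) and by 0.67 in swc2Δ (adjusted p = 0.038). The call in swc2Δ was lost without wild-type culture 2 or 3 or swc2Δ culture 1 or 2, and that in htz1Δ swc5Δ without wild-type culture 3 or its own culture 2.

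HSP78, the disaggregase of the mitochondrial matrix, was at 9.10, 8.87 and 8.63 in wild type and at 10.11, 10.22 and 10.19 in htz1Δ, with every culture above wild type. The single mutants gave 9.55, 9.71 and 9.19 (swr1Δ), 9.08, 9.53 and 8.90 (swc2Δ) and 9.36, 9.52 and 8.77 (swc5Δ). The double mutants gave 9.44, 9.69 and 9.37 with swr1Δ, 9.18, 9.57 and 9.20 with swc2Δ and 9.65, 10.31 and 9.29 with swc5Δ. HSP78 rose by 1.31 ± 0.23 in htz1Δ (2.47-fold, adjusted p = 0.00015) and by 0.88 in htz1Δ swc5Δ (adjusted p = 0.006). Its rises in swr1Δ (0.62, adjusted p = 0.048) and htz1Δ swr1Δ (0.63, adjusted p = 0.046) lay just inside the threshold, and each was lost when any of more than 10 arrays was left out.

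**Figure D3:**
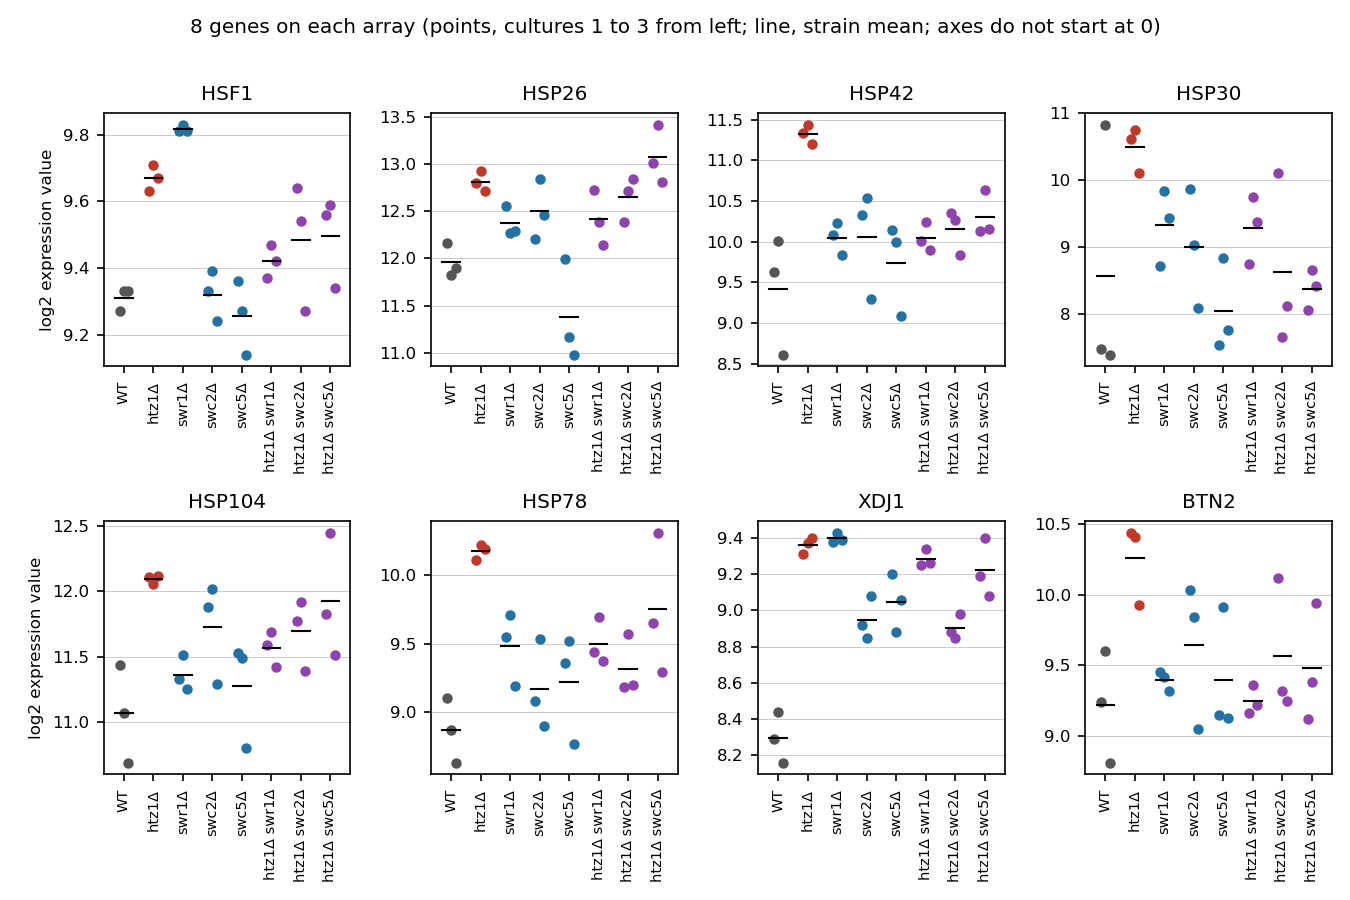
HSF1 and the 7 genes that passed 2-fold against wild type in at least 1 mutant, log2 expression value (vertical axis) on each array, with cultures 1 to 3 of a strain from left to right and the strain mean as a line; grey is wild type, red htz1Δ, blue the single mutants of the SWR1 complex and purple the double mutants. The 3 htz1Δ points of HSP42 and HSP78 lie above every point of wild type, XDJ1 lies above wild type in all mutants, and wild type spans 7.39 to 10.83 for HSP30.

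Hsp90 has a pair of genes whose proteins are nearly identical, the heat-inducible HSP82 and the constitutive HSC82. HSP82 was at 11.09, 10.92 and 10.42 in wild type and at 11.77, 11.64 and 11.61 in htz1Δ, and all htz1Δ cultures lay above wild type. HSC82 lay between 13.43 and 13.59 in both strains, and the groups overlapped. HSP82 rose by 0.86 ± 0.29 in htz1Δ (adjusted p = 0.019) and by 0.83 in htz1Δ swc5Δ (adjusted p = 0.031). In the remaining mutants but swc5Δ its difference was 0.69 to 0.73 with adjusted p of 0.061 to 0.073, and in swc5Δ it was 0.21. HSC82 was called in none, with differences of -0.13 to 0.08. Probes of near-identical genes can bind each other's transcripts, and how far they did so here was not tested.

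The cytosolic Hsp70 genes showed small rises. SSA1 rose by 0.45 ± 0.12 in htz1Δ (adjusted p = 0.0038), from 13.06, 12.95 and 12.89 in wild type to 13.48, 13.34 and 13.42. SSA3 rose in every mutant, by 0.29 to 0.58, from 8.62, 8.57 and 8.69 in wild type to 9.03, 9.18 and 8.85 in htz1Δ, and in swr1Δ it turned to -0.20 on the values as deposited. SSA2, a near-identical relative of SSA1, rose in 5 mutants by 0.19 to 0.24 and stood at 0.14 in htz1Δ (adjusted p = 0.082). SSA4, strongly heat-induced in yeast, was called in no mutant, with differences of -0.16 to 0.37 wild-type values of 10.66, 10.17 and 10.11 and swc5Δ values of 10.00, 10.38 and 10.08. SSB1 and SSB2, the Hsp70 pair that works at the ribosome, differed from wild type by 0.16 or less in size in every mutant. The SSB1 probe set counted here rose by 0.11 in htz1Δ (adjusted p = 0.037), while the other SSB1 probe set, of a kind marked as matching several transcripts, stood at -0.06 (adjusted p = 0.24), so the direction of SSB1 was not settled.

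The Hsp110 genes SSE1 and SSE2 encode exchange factors of Hsp70. SSE1 was at 12.69, 12.69 and 12.68 in wild type and rose in every mutant but swc5Δ, by 0.25 ± 0.05 in htz1Δ (adjusted p = 0.00035) and by 0.29 in htz1Δ swc5Δ (adjusted p = 0.00016). In swr1Δ the rise of SSE1 was 0.17, and on the values as deposited it turned to a fall, at -0.17 (adjusted p = 0.0026). SSE2, the stress-induced copy, was called in none, with differences of -0.49 to 0.42 from wild type and a standard error of 0.24 against 0.05 for SSE1. FES1 fell by 0.32 ± 0.08 in htz1Δ (adjusted p = 0.0019), from 11.47, 11.57 and 11.33 in wild type to 11.27, 11.00 and 11.13. In the other 6 mutants FES1 differed by -0.14 to 0.07 and was not called.

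Among the Hsp70 genes of organelles, mitochondrial SSC1 rose and its paralog ECM10 fell where it was called. SSC1, at 12.74, 12.68 and 12.66 in wild type and 13.02, 12.96 and 13.02 in htz1Δ, rose in all 7 mutants by 0.20 to 0.35, with all mutant cultures above wild type, but in swr1Δ it was -0.06 on the values as deposited. ECM10, a dispensable paralog of SSC1, was at 6.57, 6.80 and 6.63 in wild type, 5.97, 6.26 and 5.95 in swc2Δ and 5.78, 6.28 and 5.73 in htz1Δ swr1Δ. It fell in these 2 mutants, by 0.61 ± 0.21 (adjusted p = 0.034) and 0.74 ± 0.21 (adjusted p = 0.014), and stood at -0.21 to -0.49 in the other mutants but swc5Δ. In swc5Δ it was at 6.28 in culture 1 and at 7.23 and 7.40 in cultures 2 and 3, the cultures with the raised medians of chromosome V, on which it lies. KAR2, the Hsp70 of the endoplasmic reticulum and a target of the unfolded protein response, was called in no mutant, with differences of -0.04 to 0.12.

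The mitochondrial chaperonin genes HSP60 and HSP10 encode the barrel and its lid. HSP60 was at 13.25, 13.22 and 13.21 in wild type and rose in 4 mutants, by 0.28 ± 0.07 in htz1Δ (adjusted p = 0.0039) and by up to 0.34 in htz1Δ swc5Δ. HSP10 rose in swr1Δ (0.28, adjusted p = 0.003) and htz1Δ swc5Δ (0.21, adjusted p = 0.019) and was at 0.01 ± 0.07 in htz1Δ. In swr1Δ the HSP10 difference was -0.02 on the values as deposited.

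**Figure D4:**
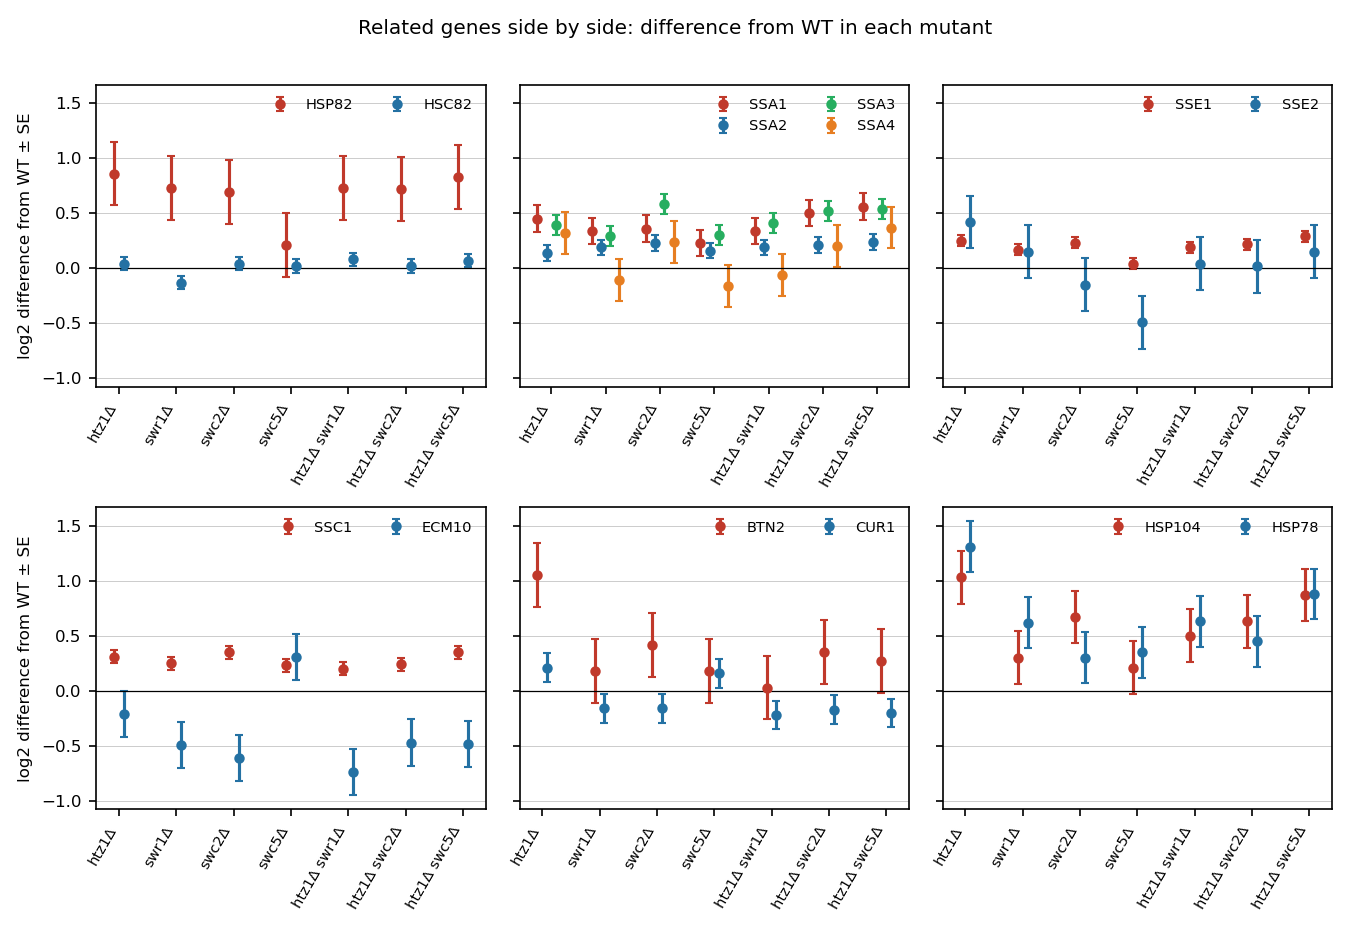
Log2 difference from wild type with its standard error (vertical axis) in each of 7 mutants (horizontal axis) for related genes: HSP82 and HSC82, the SSA genes, SSE1 and SSE2, SSC1 and ECM10, BTN2 and CUR1, and the disaggregases HSP104 and HSP78. HSP82 runs at 0.69 to 0.86 outside swc5Δ where HSC82 stays within -0.13 to 0.08, and ECM10 is below 0 in every mutant but swc5Δ where SSC1 is above 0 in all.

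J proteins set the ATP cycle of Hsp70, and 1 of them rose in every mutant on every scale tried. XDJ1, a J protein of the mitochondrial outer membrane in yeast, was at 8.29, 8.44 and 8.16 in wild type and at 9.31, 9.37 and 9.40 in htz1Δ. The single mutants gave 9.38, 9.43 and 9.39 (swr1Δ), 8.92, 8.85 and 9.08 (swc2Δ) and 9.20, 8.88 and 9.06 (swc5Δ). The double mutants gave 9.25, 9.34 and 9.26 with swr1Δ, 8.88, 8.85 and 8.98 with swc2Δ and 9.19, 9.40 and 9.08 with swc5Δ. All 21 mutant arrays lay above all 3 wild-type arrays. XDJ1 rose by 1.06 ± 0.09 in htz1Δ (adjusted p = 3.3e-08), 1.10 in swr1Δ (3.1e-08) and 0.99 in htz1Δ swr1Δ (1.4e-07), and by 0.65, 0.75, 0.61 and 0.93 in swc2Δ, swc5Δ, htz1Δ swc2Δ and htz1Δ swc5Δ. On the values as deposited the rises in the single mutants were 0.64, 0.99 and 0.96, all still called.

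MDJ1, the J protein of the mitochondrial matrix, rose by 0.65 ± 0.12 in htz1Δ (adjusted p = 0.00024), from 9.99, 9.77 and 9.82 in wild type to 10.50, 10.51 and 10.52, and rose in swr1Δ and all 3 double mutants by 0.36 to 0.61, with swr1Δ at -0.10 on the values as deposited (adjusted p = 0.47). SIS1, the essential cytosolic J protein, was called against wild type in htz1Δ, by 0.45 ± 0.15 (adjusted p = 0.014), with wild type at 11.71, 11.63 and 11.32 and htz1Δ at 12.02, 11.98 and 12.02. It was also higher in htz1Δ than in swr1Δ (0.51), swc2Δ (0.39) and swc5Δ (0.49) in the direct comparisons, with adjusted p of 0.0095, 0.04 and 0.014, while against htz1Δ the double mutants stood at -0.22 to -0.34 and were not called. YDJ1, the most general cytosolic J protein, was called in no mutant, with differences of -0.07 to 0.08, and APJ1 rose by 0.19 in both swc2Δ and htz1Δ swc5Δ (adjusted p of 0.047 and 0.044).

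Of the 6 co-chaperones of Hsp90, a group too small to settle a difference from the 24.2% of all probe sets, 3 rose in htz1Δ. STI1, which joins Hsp70 to Hsp90, rose by 0.53 ± 0.15 (adjusted p = 0.0073), AHA1, which speeds the Hsp90 ATPase, by 0.51 ± 0.13 (adjusted p = 0.0027), and CDC37, which brings kinases to Hsp90, by 0.36 ± 0.08 (adjusted p = 0.0013). AHA1 was at 11.33, 11.34 and 11.18 in wild type and 11.82, 11.78 and 11.79 in htz1Δ, with no overlap. CDC37 was at 10.73, 10.66 and 10.77 in wild type, 11.11, 11.08 and 11.06 in htz1Δ and 10.51, 10.58 and 10.48 in htz1Δ swr1Δ, below all wild-type cultures. CDC37 also rose in swc2Δ (0.29, adjusted p = 0.01) and htz1Δ swc5Δ (0.22, adjusted p = 0.039), and STI1 in htz1Δ swc5Δ (0.44, adjusted p = 0.03). HCH1, a smaller relative of AHA1, rose in swr1Δ (0.20, adjusted p = 0.02), where it was -0.13 on the values as deposited. CPR6, a cyclophilin, and SBA1, the yeast p23, were called in no mutant.

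BTN2 and CUR1 encode paralogous factors that sort misfolded proteins. BTN2 was at 9.24, 9.60 and 8.81 in wild type and 10.44, 10.41 and 9.93 in htz1Δ, with all htz1Δ cultures above wild type. The single mutants gave 9.45, 9.42 and 9.32 (swr1Δ), 10.03, 9.84 and 9.05 (swc2Δ) and 9.15, 9.91 and 9.13 (swc5Δ). The double mutants gave 9.16, 9.36 and 9.22 with swr1Δ, 10.12, 9.32 and 9.25 with swc2Δ and 9.12, 9.38 and 9.94 with swc5Δ, and all of these 6 strains overlapped wild type. BTN2 rose by 1.05 ± 0.29 in htz1Δ (2.06-fold, adjusted p = 0.0052) and stood at 0.03 to 0.42 in the other 6 mutants. CUR1 was called in none against wild type, with differences of -0.22 to 0.21.

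The double mutants were next compared with htz1Δ itself, on deposited values, to ask how the levels in cells without H2A.Z differ once a SWR1 subunit is also missing. In htz1Δ swr1Δ 0 of the 36 genes were higher and 7 lower, against 16.6% and 21.5% of all probe sets, and 2 were higher at an unadjusted p under 0.05. In htz1Δ swc2Δ 1 was higher and 5 lower, against 18.5% and 16.4%. In htz1Δ swc5Δ 3 were higher and 4 lower, against 17.7% and 14.8%. The shares of lower genes, 19.4%, 13.9% and 11.1%, thus lay near or under those of all probe sets. Since htz1Δ alone carried bar1Δ::hyg, the part of these differences that goes with BAR1 cannot be told apart. Nor can the part in htz1Δ swc5Δ that goes with lys2Δ0, which it alone carried.

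HSP42 was lower than in htz1Δ in all 3 double mutants, by 1.28, 1.18 and 1.02 in the doubles with swr1Δ, swc2Δ and swc5Δ (adjusted p of 0.006, 0.01 and 0.025, SE 0.33). CUR1 was lower in all 3 as well, by 0.43, 0.38 and 0.41 (adjusted p of 0.018, 0.036 and 0.027). HSP78 fell against htz1Δ by 0.67 with swr1Δ and 0.86 with swc2Δ (adjusted p of 0.029 and 0.0079) and was at -0.42 with swc5Δ (adjusted p = 0.17). BTN2 fell by 1.01 with swr1Δ (adjusted p = 0.0096) and 0.78 with swc5Δ (adjusted p = 0.043), where 1 culture of the double overlapped htz1Δ and the call was lost without any of 10 single arrays. The calls of HSP42 with swc5Δ and of HSP78 with swr1Δ were each lost without any of 4. HSP30 fell by 2.11 ± 0.74 with swc5Δ (adjusted p = 0.034), a call lost without any 1 of the 6 arrays of the 2 strains.

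Other genes set the 3 double mutants side by side with different values. CDC37 fell by 0.56 ± 0.08 in htz1Δ swr1Δ against htz1Δ (adjusted p = 5.4e-05), as did HSF1 by 0.25 and SBA1 by 0.23. XDJ1 fell by 0.46 ± 0.09 and AHA1 by 0.39 in htz1Δ swc2Δ. FES1, lower in htz1Δ than in wild type, was higher than htz1Δ by 0.25 in htz1Δ swc2Δ and by 0.28 in htz1Δ swc5Δ. HSP10 (0.20) and APJ1 (0.22) were the others higher in htz1Δ swc5Δ. Whether these differ between the double mutants was not tested. Without htz1Δ culture 2 the counts called against htz1Δ were 4, 3 and 0 in the 3 double mutants, and without its culture 3 they were 4, 3 and 3. Without its culture 1 the count with swc5Δ was 2. Leaving out culture 3 of htz1Δ swr1Δ gave 4, leaving out culture 1 of htz1Δ swc2Δ gave 10, and leaving out culture 1 or 3 of htz1Δ swc5Δ gave 3 or 4.

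The 20 genes that rose in htz1Δ were also followed into the double mutants. Against wild type 7, 8 and 14 of them rose in the doubles with swr1Δ, swc2Δ and swc5Δ, with medians of 0.34, 0.32 and 0.39. Against htz1Δ 5, 4 and 3 of them were lower and 0 higher, with medians of -0.21, -0.21 and -0.11, and 19, 18 and 14 of the 20 had a negative difference. These 20 were chosen by the htz1Δ and wild-type arrays that both comparisons share, so the counts are given as a description.

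The effect of deleting HTZ1 in cells that already lack a SWR1 subunit was read from each double mutant against its single mutant. Against swr1Δ, htz1Δ swr1Δ had 0 genes higher and 1 lower, HSF1 at -0.40 ± 0.08 (adjusted p = 0.02), a call lost without any 1 of the 6 arrays of these strains, where 0.346% and 0.891% of all probe sets were called. Against swc2Δ, htz1Δ swc2Δ had 0 of the 36 genes called by limma in either direction, against 0.0364% each way, and 0 at an unadjusted p under 0.05. HSP42 stood at 0.10 ± 0.33 there. Against swc5Δ, htz1Δ swc5Δ had 3 higher and 1 lower, against 3.87% and 3.02%, and at an unadjusted p under 0.05 16 were higher and 2 lower. Of the 36 genes 31 had a positive difference there. Here HSP26 was higher by 1.70 ± 0.23 (adjusted p = 0.00019), SSE1 by 0.25 (adjusted p = 0.0046) and MDJ1 by 0.41 (adjusted p = 0.046), and ECM10 was lower by 0.79 (adjusted p = 0.031), all 4 with swc5Δ cultures 2 and 3 among their controls. As htz1Δ swc5Δ alone carried lys2Δ0, the part of these differences that goes with lys2Δ0 cannot be told apart from the deletion of HTZ1. Without swc5Δ culture 1, 10 were higher and 1 lower. The count called was 8 without culture 3 of htz1Δ swc5Δ, and 2 without its culture 1 or 2 or swc5Δ culture 2 or 3.

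On the values as deposited the same comparisons gave 26 higher and 0 lower against swr1Δ, 0 higher and 18 lower against swc2Δ and 1 higher and 7 lower against swc5Δ. HSF1 against swr1Δ was then 0.05, and the shares of all probe sets called on that scale were not counted. Median centring of the deposited values gave 0 higher and 5 lower against swr1Δ. HSP26 against swc5Δ kept its call, at 1.45 (adjusted p = 0.00014).

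**Figure D5:**
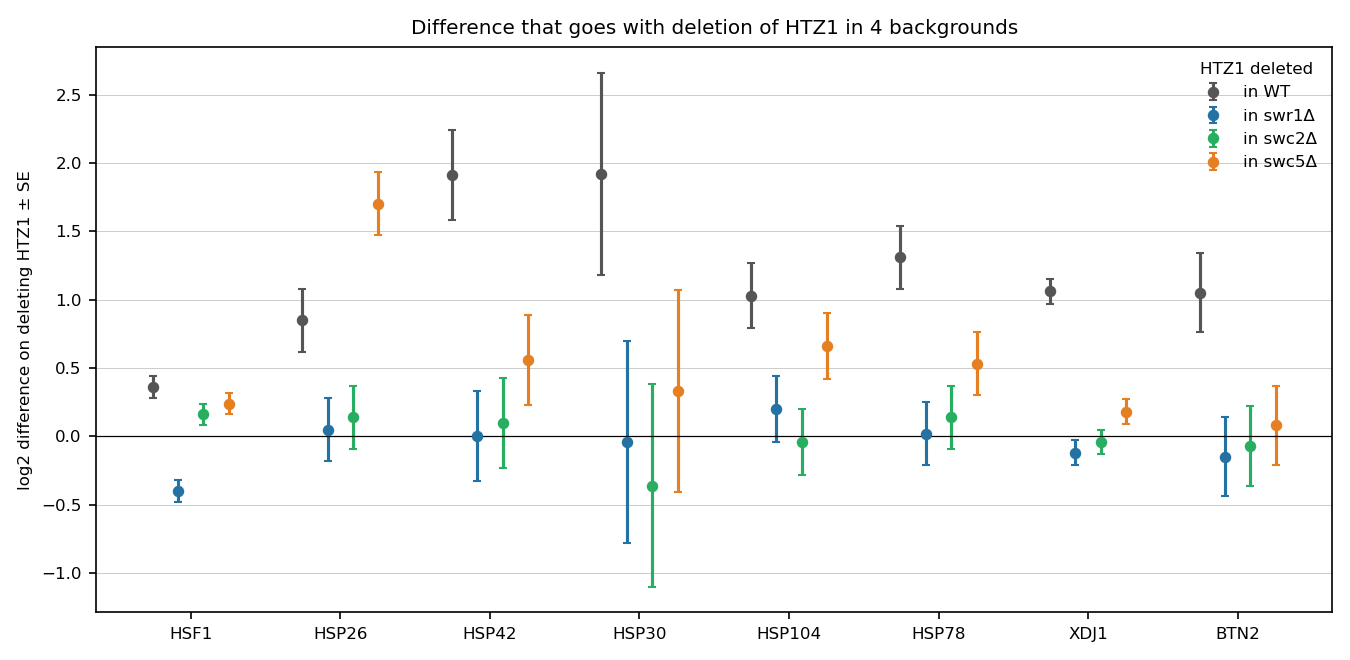
Log2 difference with its standard error (vertical axis) between a strain without HTZ1 and its background strain, for HSF1 and the 7 genes past 2-fold. The background is wild type (grey), swr1Δ (blue), swc2Δ (green) or swc5Δ (orange). Besides HTZ1, htz1Δ also lacks BAR1, and htz1Δ swc5Δ also carries lys2Δ0. For HSP42 the difference is 1.91 in wild type and 0.00, 0.10 and 0.56 in the other backgrounds, and HSP26 in swc5Δ, at 1.70, exceeds its value in wild type.

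The difference between these effects was tested as an interaction, the double mutant minus its single mutant minus htz1Δ plus wild type. With swr1Δ 12 of the 36 genes had a negative interaction and 0 a positive one, against 16.9% and 15.8% of all probe sets, and 0 were positive at an unadjusted p under 0.05. With swc2Δ 11 were negative and 0 positive, against 14.3% and 17.7%, with 1 positive at an unadjusted p under 0.05. With swc5Δ 3 were negative and 1 positive, against 16.4% and 18.8%. A negative value means that the double mutant lay below the sum of its single effects. Each interaction subtracts the difference between htz1Δ and wild type, whose median was 0.31 over the 36 genes and -0.02 over all probe sets. Negative values were thus favoured in advance for this set, and the counts are given as a description. HSP42 (-1.91, -1.82 and -1.35 with swr1Δ, swc2Δ and swc5Δ) and XDJ1 (-1.18, -1.11 and -0.89) were negative with all 3, and HSP42 with swc5Δ (adjusted p = 0.032) lost its call without any of 7 single arrays. XDJ1 differed between each double mutant and its single mutant by -0.12, -0.04 and 0.18 (adjusted p of 0.79, 0.90 and 0.22), where htz1Δ differed from wild type by 1.06.

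HSP78, MDJ1, SSE1, SSC1, AHA1, CDC37 and BTN2 had negative interactions with both swr1Δ and swc2Δ. HSF1, SSA1 and SSB2 were also called with swr1Δ, HSP104 and SSA3 with swc2Δ and CUR1 (-0.57, adjusted p = 0.026) with swc5Δ. HSP26 had the positive value, 0.85 ± 0.32 with swc5Δ (adjusted p = 0.044), and lost that call without any of 14 single arrays. The interactions of BTN2 with swr1Δ and swc2Δ lost theirs without any of 7 and 8, and that of HSP104 with swc2Δ without any of 4. On the values as deposited, 5 interactions were positive and 4 negative with swr1Δ, 30 were negative with swc2Δ and 19 with swc5Δ. The shares of all probe sets on that scale were not counted. HSP42 and XDJ1 stayed negative and called with all 3 subunits on that scale too, at -1.46, -2.17 and -1.57 for HSP42 and -0.72, -1.44 and -1.10 for XDJ1.

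Without wild-type culture 3 the counts of interactions called were 7 with swr1Δ and 1 with swc5Δ. With swr1Δ the count was also 7 without htz1Δ culture 1, swr1Δ culture 2 or culture 3 of htz1Δ swr1Δ, and with swc2Δ it was 7 without swc2Δ culture 2 or culture 3 of htz1Δ swc2Δ. With swc5Δ it was 2 without any 1 htz1Δ culture, swc5Δ culture 2 or culture 1 of htz1Δ swc5Δ, and 7 without culture 2 of htz1Δ swc5Δ. The interactions of HSP42 and XDJ1 with swr1Δ and swc2Δ passed whichever array was left out.

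Compared directly, htz1Δ was higher than swr1Δ in 9 of the 36 genes and lower in 3, against 21.1% and 21.9% of all probe sets. It was higher than swc2Δ in 8 and lower in 2, against 20.2% and 21%, and higher than swc5Δ in 17 and lower in 1, against 17% and 18%. HSP42 was 1.27, 1.27 and 1.58 higher in htz1Δ than in swr1Δ, swc2Δ and swc5Δ (SE 0.33), and HSP78 0.69, 1.00 and 0.96 higher (SE 0.23). FES1 was lower in htz1Δ than in each, by 0.36, 0.32 and 0.39. BTN2 was higher than in swr1Δ and swc5Δ by 0.86 in both, and by 0.62 than in swc2Δ (adjusted p = 0.088). XDJ1 in htz1Δ was at -0.04 from swr1Δ (adjusted p = 0.74). On the values as deposited the counts were 31 higher and 0 lower, 2 higher and 16 lower, and 6 higher and 9 lower. The shares of all probe sets to set beside them were not counted. Without swc5Δ culture 3 the count called against swc5Δ was 9, without htz1Δ culture 2 or swr1Δ culture 3 that against swr1Δ was 6 or 5, and without swc2Δ culture 1 or 3 that against swc2Δ was 6.

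Spread between cultures was large in part of the set. For 11 of the 36 genes the SD within strains lay above the 90th percentile of all probe sets, and these were HSP26, HSP42, HSP30, HSP31, HSP104, HSP78, HSP82, SSA4, SSE2, ECM10 and BTN2. For 13 genes it lay under the 25th percentile, among them HSC82, SSB1, SSB2, SSE1 and SSC1. In wild type culture 3 was the lowest of the 3 cultures for 25 of the 36 genes, against 24.8% of all probe sets. Culture 3 was lowest for 25 genes in swc2Δ, 26 in swc5Δ, 26 in htz1Δ swc2Δ and 27 in htz1Δ swc5Δ, against 33.1%, 29.6%, 40% and 42.9% of all probe sets, and for 18, 18 and 13 in swr1Δ, htz1Δ swr1Δ and htz1Δ, against 31.2%, 33.1% and 30.9%.

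The other chaperone genes of yeast, a list of 51 genes measured here that holds the TRiC chaperonin, prefoldin, the remaining J proteins, Hsp70 and Hsp90 helpers and folding enzymes of the endoplasmic reticulum, were more often lower than higher in htz1Δ. Of these 51, 2 rose and 19 fell there, with a median of -0.11, and 37.3% falling against 26.9% of all probe sets. In swr1Δ, swc2Δ and swc5Δ 2, 8 and 3 rose and 13, 13 and 14 fell, counts made after the mapping of these arrays and not computed on the values as deposited. The falling shares there were 25.5%, 25.5% and 27.5%, against 17.6%, 17.3% and 16.6% of all probe sets, and the rising shares 3.92%, 15.7% and 5.88% against 14.7%, 16% and 16.4%. In the double mutants 2, 7 and 4 rose and 13, 11 and 13 fell, and the falling shares of 25.5%, 21.6% and 25.5% stood against 18%, 16.3% and 18.7%. In htz1Δ the TRiC genes had 0 rising and 3 falling of 8, the other J proteins 1 and 6 of 16, and the folding enzymes of the endoplasmic reticulum 0 and 3 of 6. Over all probe sets 24.2% rose and 26.9% fell there, and groups this small do not settle a difference from those shares. The other groups of the list are not given here. MDJ2, a mitochondrial J protein, was at 6.84, 7.18 and 7.42 in wild type, 5.74, 5.87 and 5.69 in htz1Δ and 7.09, 7.27 and 7.17 in htz1Δ swr1Δ, and so fell by 1.38 ± 0.21 in htz1Δ (adjusted p = 3.1e-05) and was 1.41 higher in htz1Δ swr1Δ than in htz1Δ (adjusted p = 6.3e-05). JJJ3, a J protein of diphthamide synthesis, was 1.06 ± 0.18 higher in htz1Δ swc2Δ than in htz1Δ (adjusted p = 0.00025), with values of 9.44, 9.50 and 9.85 against 8.72, 8.37 and 8.52. JJJ3 was at 9.36, 9.13 and 9.35 in htz1Δ swr1Δ and 9.41, 9.35 and 9.70 in htz1Δ swc5Δ, also above every htz1Δ culture. SNO4, a relative of HSP31 whose probe set can bind its near-identical copies, was at 6.25, 5.86 and 5.99 in wild type and 4.76, 5.05 and 5.27 in swr1Δ and fell there by 1.01 ± 0.22 (adjusted p = 0.0015). In htz1Δ swr1Δ SNO4 was at 4.93, 5.13 and 5.22, also below every wild-type culture.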

How the data were processed

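RNA of 24 cultures, 3 of each of 8 strains, was hybridised to 1 Affymetrix Yeast Genome 2.0 array each. The deposited values are log2 expression values, from 1.61 to 14.72, which the authors made from the scanner files with RMA. Which arrays were normalized together is not given in the sources used here. Array data give no read depth, and the number of arrays limits the precision.

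Of 10928 probe sets, 1747 belong to another species and 3683 have no gene in the annotation used, and the 5498 others, of 5449 genes, were tested. The 9 arrays of swr1Δ, swc2Δ and swc5Δ were given, rank for rank over the tested probe sets, the average value of the 15 others. One mean per strain was fitted to all 24 arrays with limma 3.58.1 in R 4.3.3 (16 residual degrees of freedom), with empirical Bayes moderation and Benjamini-Hochberg adjustment over the 5498 probe sets in each of 19 comparisons. The test was checked on simulated data with independent normal noise on each array and changes planted in htz1Δ. Those data held no effect shared by replicate number and no difference in array level, so the check does not cover these. The 36 genes and the other lists were chosen with earlier results of these data known. Values per array of every strain are given for HSF1 and for genes that passed 2-fold and an adjusted p under 0.05 against wild type in at least 1 mutant, and genes of the list of other chaperones are named where they passed both in any comparison. HSP32 and HSP33, of the 53 other chaperone genes listed, were not analysed here. A planned search for promoter motifs was not run. Alternatives were other scalings of the arrays, other sets of probe sets or samples, a replicate block and each array left out.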

Additional observations from a re-analysis of the deposited data

Results flagged for a closer look

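For 13 pairs of a gene and a SWR1 subunit among the genes described by array, the difference that went with deleting HTZ1 was itself different in cells with and without the subunit, tested as an interaction in limma (SE in the same units, log2). With SWR1 deleted the interactions were -0.76 for HSF1 (SE 0.12, adjusted p = 8.8e-05), -1.91 for HSP42 (SE 0.47, adjusted p = 0.0046), -1.29 for HSP78 (SE 0.33, adjusted p = 0.0058), -1.18 for XDJ1 (SE 0.13, adjusted p = 2.2e-06) and -1.20 for BTN2 (SE 0.40, adjusted p = 0.029). With SWC2 deleted they were -1.82 for HSP42 (adjusted p = 0.0069), -1.07 for HSP104 (SE 0.34, adjusted p = 0.022), -1.16 for HSP78 (adjusted p = 0.011), -1.11 for XDJ1 (adjusted p = 4.6e-06) and -1.12 for BTN2 (adjusted p = 0.041). With SWC5 deleted they were 0.85 for HSP26 (SE 0.32, adjusted p = 0.044), -1.35 for HSP42 (adjusted p = 0.032) and -0.89 for XDJ1 (adjusted p = 3.7e-05). On the values as deposited, HSP26 with SWC5 deleted (0.60, adjusted p = 0.13) and BTN2 with SWR1 deleted (-0.73, adjusted p = 0.12) were no longer called. The 3 sets of interactions share the wild-type and htz1Δ arrays. Apart from HSF1, the genes were picked for passing 2-fold against wild type, in most cases in htz1Δ. An interaction subtracts the same difference between htz1Δ and wild type, so this choice favoured negative values in advance. The list is therefore given as a description. In addition, htz1Δ alone carried bar1Δ::hyg and htz1Δ swc5Δ alone carried lys2Δ0, which cannot be told apart from the deletion of HTZ1 here.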

How the results depend on the processing

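On the values as deposited, counts of the 36 genes called were 31 in swc2Δ and 17 in swc5Δ against wild type, 26, 18 and 8 for the double mutants against swr1Δ, swc2Δ and swc5Δ, 31 and 18 for htz1Δ against swr1Δ and swc2Δ, and 30 and 19 for the interactions with swc2Δ and swc5Δ. Directions turned there in swr1Δ against wild type for HSP10 (-0.02), SSA2 (-0.03), SSA3 (-0.20), SSB2 (-0.06), SSE1 (-0.17), SSC1 (-0.06), MDJ1 (-0.10) and HCH1 (-0.13), in htz1Δ swr1Δ against swr1Δ for HSF1 (0.05) and XDJ1 (0.35), and in htz1Δ against swr1Δ for HSF1 (0.30), HSP10 (0.03), XDJ1 (0.43), APJ1 (0.31) and FES1 (0.03). They also turned for SBA1 (-0.10) in htz1Δ against swc2Δ, SSB1 (-0.08) and SSE1 (-0.03) against swc5Δ, and the swr1Δ interactions of SSB2 (0.04) and SSE1 (0.11). Median centring gave 5 for htz1Δ swr1Δ against swr1Δ and took HSC82 in htz1Δ against swr1Δ to 0.00, and quantile normalization gave 5 for swc5Δ. With all probe sets of the array in the fit the counts were 7 in swr1Δ, 7 in swc2Δ, 5 in htz1Δ swr1Δ and 11 in htz1Δ swc5Δ against wild type, 3 for htz1Δ swc5Δ against htz1Δ and 7 for the interaction with swr1Δ. With only the strains compared they were 7 in swc2Δ and 15 in htz1Δ swr1Δ against wild type, 15 for htz1Δ swr1Δ against htz1Δ, 0 for htz1Δ swc5Δ against swc5Δ, 23 and 10 for htz1Δ against swr1Δ and swc5Δ, and 19 and 2 for the interactions with swr1Δ and swc5Δ. The shares of all probe sets called under these settings were not counted. The causes of the changes in counts and directions were not tested.

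The labels do not say what a replicate number shares, and no pairing was assumed. Residuals of arrays of the same number correlated with a median of 0.09 (-0.37 to 0.62 over 84 pairs, 42 of them over 0.1), against -0.04 over 168 pairs of different numbers, 34 of them over 0.1, and 19 of 24 arrays correlated best with arrays of their own number, a hint of shared conditions from the data and not the design. With the replicate block the counts were 6, 18 and 16 in swc5Δ, htz1Δ swr1Δ and htz1Δ swc2Δ against wild type, 12 and 10 for htz1Δ swr1Δ and htz1Δ swc2Δ against htz1Δ and 12 for htz1Δ swc5Δ against swc5Δ.

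With each array left out in turn, counts against wild type ran from 17 to 22 (htz1Δ), 7 to 14 (swr1Δ), 5 to 13 (swc2Δ), 2 to 7 (swc5Δ), 4 to 12 (htz1Δ swr1Δ), 5 to 12 (htz1Δ swc2Δ) and 10 to 18 (htz1Δ swc5Δ). For the double mutants with swr1Δ, swc2Δ and swc5Δ they ran from 4 to 9, 3 to 10 and 0 to 8 against htz1Δ and from 0 to 1, 0 to 0 and 2 to 11 against the single mutants. For htz1Δ against swr1Δ, swc2Δ and swc5Δ they ran from 5 to 14, 6 to 13 and 9 to 19, and for the interactions from 7 to 14, 7 to 12 and 1 to 7. Of 174 called values of single genes, 85 lost the call without some array. The rises of HSF1, HSP26, HSP42, HSP104, HSP78, XDJ1 and BTN2 in htz1Δ stayed called whichever array was left out.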
